A study of Mus musculus with 12 samples.

Results

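Puf60 is made in forms with and without its exon 5, and the contacts of both forms with RNA were compared cluster by cluster in the mouse neuroblastoma line N2A. The members are pairs of clusters, stretches of the genome where the authors counted reads of crosslinked RNA. A cluster of Puf60 with exon 5 and one of Puf60 without it form a pair when they lie on the same chromosome and strand and each is the other's largest overlap, of 1 nt or more. This gave 20187 pairs, out of 36227 clusters with exon 5 and 39454 without, in a series that holds 124941 clusters in 3 tables, the third being that of Rbm38. Pairs thus took up 55.7% of the clusters with exon 5 and 51.2% of those without. The strand was read from the start position, which falls on a 50-nt grid with 1 of 2 offsets (0 for plus, 35 for minus); among 3689 protein-coding genes it matched the strand that RefSeq gives in 95.5%.

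Every library came from an N2A line carrying a doxycycline-inducible transgene, placed with the Flp-in system, for the Flag-tagged protein. All received 1 µg/ml doxycycline and 150 mJ/cm2 of ultraviolet light, and RNA was isolated with anti-Flag M2 by iCLIP, which maps contacts between protein and RNA through crosslinks. Puf60 including exon 5 had 3 CLIP libraries after 48 h of induction and 1 size-matched input after 24 h, and Puf60 lacking exon 5 had 3 CLIP libraries and 1 input, all after 24 h. Isoform and hours of induction therefore cannot be told apart in any value below. The labels do not say whether the cells' own Puf60 was removed, whether each line is 1 clone, or whether replicate libraries stem from different cultures.

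The authors' deposited tables give each cluster a log2 fold, taken here as CLIP over that isoform's own input, beside its p-value before and after adjustment. No value per library is among them, so neither depth nor the spread between replicates is known and no difference between the isoforms could be tested. All differences below are log2 fold with exon 5 minus log2 fold without, and they describe these tables. Enriched means a deposited adjusted p below 0.05, and a difference is called wide above 1 or below -1, which is more than 2-fold. Because each isoform has its own input, a difference between the inputs enters each value as well, and its part was not tested.

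Puf60 binds pyrimidine-rich RNA, stretches of C and U that lie ahead of 3′ splice sites, and helps to recruit the spliceosome together with its relative U2af2. Exon 5 lies in the amino-terminal part of the protein. The human form without this exon is known as FIR, a repressor of MYC transcription that works with FUBP1, a single-strand DNA-binding protein at the MYC promoter. Both forms keep the RNA recognition motifs that contact nucleic acid.

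Sequence could be read only where a pair lay whole in a promoter window that RefSeq gives for GRCm38.p6, from 250 nt before to 50 nt after an annotated gene start. The windows below show which letters stand under pairs enriched with both isoforms, under pairs that differed, and under a pair enriched with neither. Each is the 30-nt window richest in C and T within a pair, on the cluster's strand, with the longest unbroken run of C or T in capitals. The first 4, with 27 to 30 pyrimidines each, lie in pairs that were enriched in both tables with differences between -0.73 and -0.01.
Ncoa6, chr2:155440806-155440835, minus strand: CCCCCCTCTCTCCCTCTCCTCTTCTCTCTC
R3hdm2, chr10:127380656-127380685, plus strand: CCTTTCTTCCCCTTCTgcttctccccctcc
Rfx3, chr19:28011206-28011235, minus strand: CCCCTCCTCCCTCCCCCCCgcccctccccg
Ireb2, chr9:54863759-54863788, plus strand: ctgCTTCCTTCCTCCTTTCCCCTgcccgtc
The next pairs were also enriched in both tables but differed by more than 1, with Fubp3 and Zbtb18 higher with exon 5 and Nt5dc2 lower.
Fubp3, chr2:31572660-31572689, plus strand: gaccccgcctcacagacgctgCTTTCCCCC
Zbtb18, chr1:177444707-177444736, plus strand: catcatctccactttgcatctgTCTCTCTT
Nt5dc2, chr14:31134705-31134734, plus strand: atggtcctgccttcttggTTCTCCTTCCCT
The last lines are a pair enriched without exon 5 alone and a pair enriched in neither table.
Pa2g4, chr10:128565906-128565935, minus strand: cgcgCTTTCCTCgcggatcgaagagactct
Rpl14, chr9:120571509-120571538, plus strand: CCCTCTCTCTTCTCgctgagcgccgccaac

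At the first 4 of these windows the isoforms lay within 0.73 of each other. In the authors' deposited tables the pair in Ncoa6, a nuclear receptor coactivator gene, had log2 folds of 4.02 with exon 5 and 4.45 without. The pair in R3hdm2 had 4.22 and 4.23, and that in Rfx3, a transcription factor gene, 3.91 and 3.98, by the authors' deposited tables. Ireb2, which encodes an iron-responsive RNA-binding protein, had 3.07 and 3.80 in the authors' deposited tables. The pair in Fubp3, a relative of Fubp1, had 4.81 with exon 5 and 3.79 without in the authors' deposited tables, and that in Zbtb18, a transcriptional repressor gene, 3.31 and 2.28. Nt5dc2 had 3.23 with exon 5 and 4.25 without, and Pa2g4 0.22 and 1.47, in the authors' deposited tables. Rpl14, a ribosomal protein gene whose window holds a run of 14 pyrimidines, had -2.04 and -2.17 in the authors' deposited tables, which is depletion against input with both isoforms. A long run of C and T thus stood under pairs of both kinds, and its presence alone did not mark a pair as enriched.

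Of the 50-nt pairs whole in such windows, the 13 enriched in both tables held a median of 76% C or T, from 44% to 92%. The median was 60%, from 26% to 82%, for the 38 enriched in neither. It was 50% for 197106 consecutive 50-nt stretches of all promoter windows. A 30-nt window with at least 24 pyrimidines was present in 8 of the 13 pairs (61.5%), in 8 of the 38 (21.1%) and in 4.82% of all stretches. The pairs that differed in call were too few to compare, with 1 enriched with exon 5 alone (62%) and 3 enriched without exon 5 alone (median 52%). Many of the 38 pairs enriched in neither lay in histone or ribosomal protein genes, and the 13 enriched in both did not. The part of gene class in the difference between these groups was not tested. Promoter windows hold gene starts rather than 3′ splice sites, so most pairs are not covered by this description.

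The other sequences shown are 2 tRNA genes, because tRNA genes had the highest median difference of all gene classes with at least 15 pairs. They are the only ones among those with a pair that lay whole in a promoter window of a neighbouring gene, and each is printed on the strand of its pair with the anticodon in capitals.
n-TAagc16, chr13:21222586-21222657, plus strand: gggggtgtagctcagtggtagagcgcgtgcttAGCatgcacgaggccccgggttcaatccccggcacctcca
n-TRtcg5, chr7:79466419-79466491, plus strand: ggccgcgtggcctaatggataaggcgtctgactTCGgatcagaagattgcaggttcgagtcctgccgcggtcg
The alanine tRNA gene n-TAagc16 had log2 folds of -1.20 with exon 5 and -2.65 without in the authors' deposited tables. The arginine tRNA gene n-TRtcg5 had 0.69 with exon 5 and -1.18 without in the authors' deposited tables. Both were higher with exon 5, by 1.45 and 1.87.

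The isoforms were alike at most pairs. Of the 20187 pairs, 8822 were enriched in both tables (43.7%), 1106 with exon 5 alone (5.48%) and 850 without exon 5 alone (4.21%), while 39.1% of all clusters with exon 5 and 36.1% of those without were enriched. Over all pairs the middle 50% of differences ran from -0.34 to 0.55. The median difference was 0.04 for pairs enriched in both tables and 0.14 for pairs enriched in neither. It was 0.79 for those enriched with exon 5 alone and -0.60 for those enriched without it alone, 2 values that the calls themselves help to set. A difference above 0 was found at 56.4% of all pairs.

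**Figure D1:**
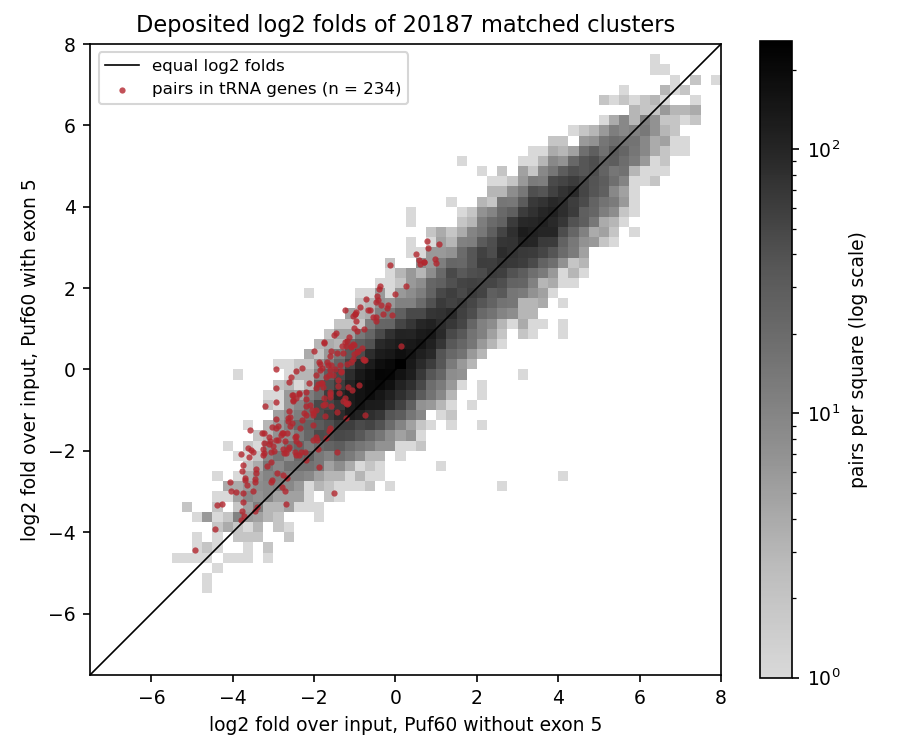
Log2 fold over input with exon 5 (vertical axis) against that without exon 5 (horizontal axis) for the 20187 pairs, counted in squares of 0.25 on a log grey scale, with the 234 pairs in tRNA genes in red and a line of equal values. Most squares follow the line, and 223 of the 234 tRNA pairs lie above it.

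Wide differences made up a minor share and ran both ways. Of all pairs 1943 (9.63%) had a difference above 1 and 1148 (5.69%) one below -1. Of the 10778 pairs that were enriched in 1 table or both (53.4%), 982 (9.11%) were more than 1 higher and 715 (6.63%) more than 1 lower with exon 5, so that 57.9% of the wide pairs were higher. This split depends on where 0 is set. With differences centred on the median of pairs enriched in neither table, a shift of 0.14, it was 702 higher and 993 lower (41.4% higher). With differences centred on pairs enriched in both, a shift of 0.04, it was 893 and 801 (52.7% higher). Which isoform has more wide pairs on its side is thus not settled by these tables.

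How the clusters were drawn mattered as well. Both clusters of a pair had the same start and end at 13657 pairs (67.7%), of which 10455 were single 50-nt clusters. The cluster with exon 5 was the longer at 2428 pairs and that without at 3852. Among enriched pairs of identical extent 7.14% were more than 1 higher and 5.85% more than 1 lower, against 14.3% and 6.51% where the cluster with exon 5 was longer and 12.5% and 9.82% where the other was. The smallest overlap of any pair was 50 nt, at 14779 pairs with a median difference of 0.08. Just outside the rule lay 871 clusters with exon 5 and 439 without that overlapped a cluster of the other table but were not its largest overlap, with median log2 folds of 0.33 and 0.69.

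tRNA genes had the highest median difference among classes with at least 15 pairs. tRNAs are short RNAs made by RNA polymerase III that carry amino acids to the ribosome, and their genes exist in many near-identical copies, so that the assignment of a cluster to 1 copy is uncertain. There were 234 pairs in 233 of the 430 tRNA genes that RefSeq lists. Their median log2 fold was -0.79 with exon 5 and -1.95 without in the authors' deposited tables, and the median difference was 1.35 (quartiles 0.79 and 1.80, range -1.54 to 2.96). The difference was above 0 at 223 of the 234 (95.3%, against 56.4% of all pairs) and above 1 at 154 (65.8%, against 9.63%). It was below -1 at 1 pair, in n-TAagc8. Enrichment with exon 5 alone was called at 55 of the 234 (against 5.48% of all pairs). It was called in both tables at 3 (against 43.7%), and without exon 5 alone at 0 (against 4.21%).

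In most tRNA genes the reads were therefore scarcer than in the input with both isoforms, and scarcer still without exon 5. The shift was not a trait of all depleted pairs. Between the quartiles of the tRNA pairs' mean log2 fold, -2.28 and -0.40, there were 116 tRNA pairs with a median difference of 1.22 and 62.1% above 1, and 4553 other pairs with a median of 0.16 and 11.2% above 1. Pairs of identical extent, 189 in tRNA genes, gave a median of 1.31, and the 220 pairs whose log2 fold and p-value are not repeated at 10 or more clusters gave 1.38.

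All 20 amino acids had a median difference above 0. The highest medians were at cysteine (2.30, 5 of 5 pairs above 0), serine (1.86, 17 of 17), threonine (1.86, 13 of 13) and arginine (1.80, 24 of 24). Aspartate (0.55, 8 of 9), isoleucine (0.70, 8 of 11) and glycine (0.88, 18 of 18) were the lowest. Serine, threonine and tryptophan were the amino acids whose median log2 fold with exon 5 lay above 0.5, at 0.56, 0.90 and 0.53 in the authors' deposited table, against -1.15, -1.22 and -0.82 without it. Of 45 anticodons, all had a median difference above 0, between 0.03 and 2.30, and 36 had no pair at or below 0. Copies with different anticodons for the same amino acid could differ, as for alanine, whose TGC genes had a median of 2.21 over 8 pairs and whose AGC genes 1.45 over 11.

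**Figure D2:**
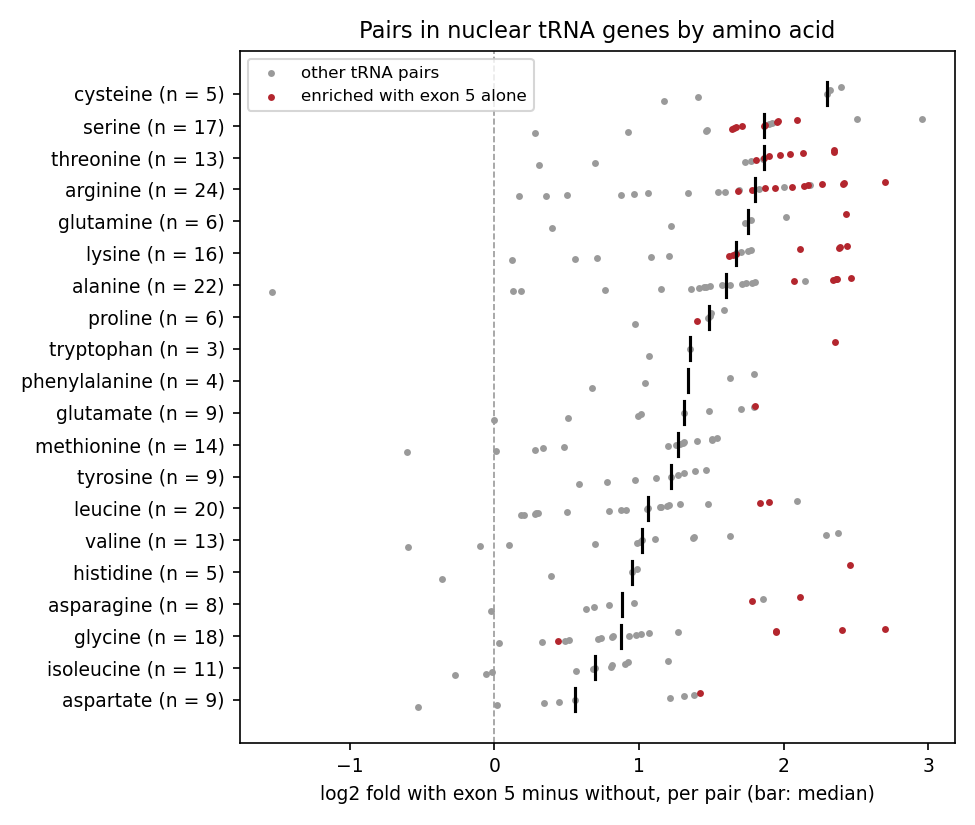
Difference of log2 fold, with exon 5 minus without, for each pair in a nuclear tRNA gene (points), grouped by amino acid, with the group median as a bar and pairs enriched with exon 5 alone in red. All 20 medians lie right of 0, from 0.55 for aspartate to 2.30 for cysteine.

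The first 5 tRNA genes below were chosen as enriched pairs of identical extent with the widest differences, and the median of all tRNA pairs was 1.35. The glycine tRNA gene n-TGccc6 had log2 folds of 2.56 with exon 5 (chr3:96424036-96424135) and -0.14 without in the authors' deposited tables. The arginine tRNA gene n-TRcct4 had 1.46 and -1.24, the alanine tRNA gene n-TAtgc11 0.46 and -2.01, the histidine tRNA gene n-THgtg1 1.74 and -0.71, and the lysine tRNA gene n-TKctt18 2.05 and -0.39, in the authors' deposited tables. Each of these 5 was enriched with exon 5 alone, which their choice made likely. Of the 234 tRNA pairs, 176 were enriched in neither table, against 9409 of all 20187 pairs. The 3 enriched in both were n-TRccg2 (2.99 with exon 5, 0.81 without), n-TQctg2 (3.09 and 1.07) and n-TTcgt2 (2.71 and 0.98), again in the authors' deposited tables. The pair with the lowest difference, in n-TAagc8, went the other way, at -3.04 with exon 5 and -1.51 without in the authors' deposited tables.

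The Rbm38 libraries, induced for 24 h with their own input, give another reading of the same genes. Among all clusters in tRNA genes, 58 of 234 with exon 5 were enriched (24.8%), 3 of 251 without exon 5 (1.20%) and 42 of 169 for Rbm38 (24.9%), where the whole Rbm38 table had 50.9%. At the 177 tRNA pairs with an overlapping Rbm38 cluster, the median log2 fold was -0.56 with exon 5, -1.88 without and -0.70 for Rbm38 in the authors' deposited tables. Rbm38 lay above Puf60 without exon 5 at 144 of these pairs and above Puf60 with exon 5 at 109. Puf60 without exon 5 was thus the lowest of the 3 in the median. Among the tRNA genes named first above, Rbm38 had 4.82 at n-TAtgc11, 4.05 at n-THgtg1 and 2.26 at n-TKctt18 in the authors' deposited table. Each of these lay above the value of Puf60 with exon 5. At n-TGccc6 Rbm38 had -1.75, below it, and n-TRcct4 had no matched Rbm38 cluster.

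Among other small RNA classes, some had medians above that of all pairs and others did not. The 165 pairs in snRNA genes, the RNA parts of the spliceosome and their copies, had a median difference of 0.28, and the 237 in snoRNA genes, whose RNAs guide the modification of ribosomal RNA, 0.17. The 15 pairs in guide RNA genes, a class in which RefSeq lists the small Cajal body RNAs, had 0.62, with 13 of 15 above 0. All 3 pairs of Terc, the telomerase RNA, were higher with exon 5, at -1.25, -1.77 and -0.15 against -3.01, -2.42 and -1.19 without in the authors' deposited tables. The Y RNA genes Rny1 and Rny3 had differences of 0.78 and 0.71. The 10 pairs in miRNA genes had a median of 0.08, with 5 of 10 above 0, and the 15 in rRNA genes -0.26, with 6 of 15 above 0. Protein-coding genes (14089 pairs, 0.09), long noncoding RNA genes (592, 0.10), the strand opposite to a gene (1167, 0.08) and stretches outside genes (2535, 0.11) all lay at the median of all pairs, 0.10, or within 0.03 of it.

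**Figure D3:**
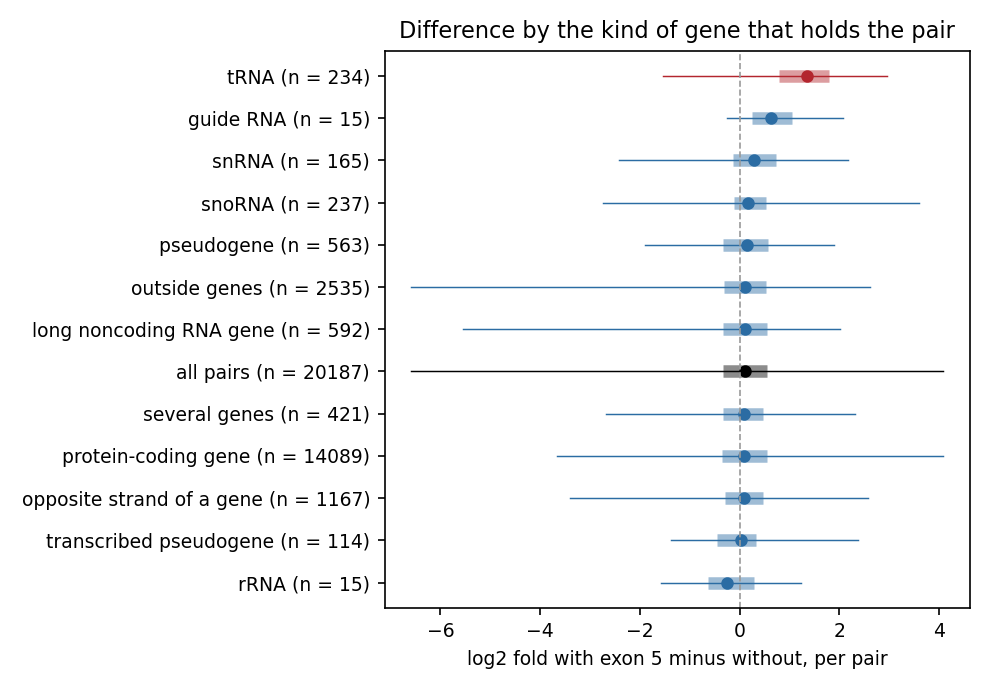
Difference of log2 fold, with exon 5 minus without, by the kind of gene that holds the pair, for kinds with at least 15 pairs; points are medians, thick bars run from the lower to the upper quartile and thin lines from the lowest to the highest pair. The tRNA class has its lower quartile at 0.79, above the median of each other class shown.

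Along protein-coding genes, on the sense strand, the difference was somewhat larger near the 3′ end. For centres up to 2000 nt from the annotated end of the gene the median difference was 0.18 over 4043 pairs, with 60.7% above 0. Up to 2000 nt from the 5′ end it was 0.01 over 980 pairs, and in the rest of the gene 0.06 over 8681. Near the 3′ end the median log2 fold was -0.04 with exon 5 and -0.20 without in the authors' deposited tables, so the median pair there lay just below input. Over the enriched pairs alone the medians were 0.12 at the 3′ end, 0.00 at the 5′ end and 0.05 between.

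Taken gene by gene, the isoforms ranked genes alike, and the difference varied from pair to pair within genes. How much of this variation is spread between replicates is unknown. There were 422 genes with at least 5 pairs enriched in at least 1 table, which held 4122 such pairs. Over these genes the median log2 folds of the isoforms had a Pearson r of 0.902 and a Spearman rho of 0.906, given as a description of genes measured in the same libraries. The median of the gene medians of the difference was 0.10. It was above 0.5 in 50 genes and below -0.5 in 16, and 409 of the 422 had pairs on both sides of 0. In 106 genes at least 1 pair was more than 1 higher and another more than 1 lower. Only 5.17% of the variance of the difference lay between genes. Neighbouring pairs less than 200 nt apart had differences that correlated with an r of 0.11 over 518 neighbours. For those at least 5000 nt apart r was 0.09 over 575. Pairs of 1 gene come from the same RNA, and they are not replicates of a condition.

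Counts for single genes from here on are of pairs enriched in at least 1 table. A call in 1 table alone helps to set the sign of a pair. The difference was above 0 at 95.3% of pairs enriched with exon 5 alone and at 11.5% of those enriched without it alone. All pairs so counted lay above 0 in 12 of the 422 genes and below 0 in 1, Meis2. The 12 were Kcnq1, Slc25a3, Aopep, Arl6ip6, Dusp11, Nufip2, Marchf6, Adam9, Cnot6, Papola, Cnot7 and H2az1. Cnot6 and Cnot7 encode catalytic subunits of the CCR4-NOT deadenylase, and Papola the canonical poly(A) polymerase. Cnot6 had 7 pairs with a median of 0.41, Cnot7 had 5 with 0.31 and Papola 5 with 0.36. Meis2, a homeobox transcription factor gene, had 5 pairs with a median of -0.55. All 13 hold 5 to 7 pairs, and genes with more had pairs on both sides.

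**Figure D4:**
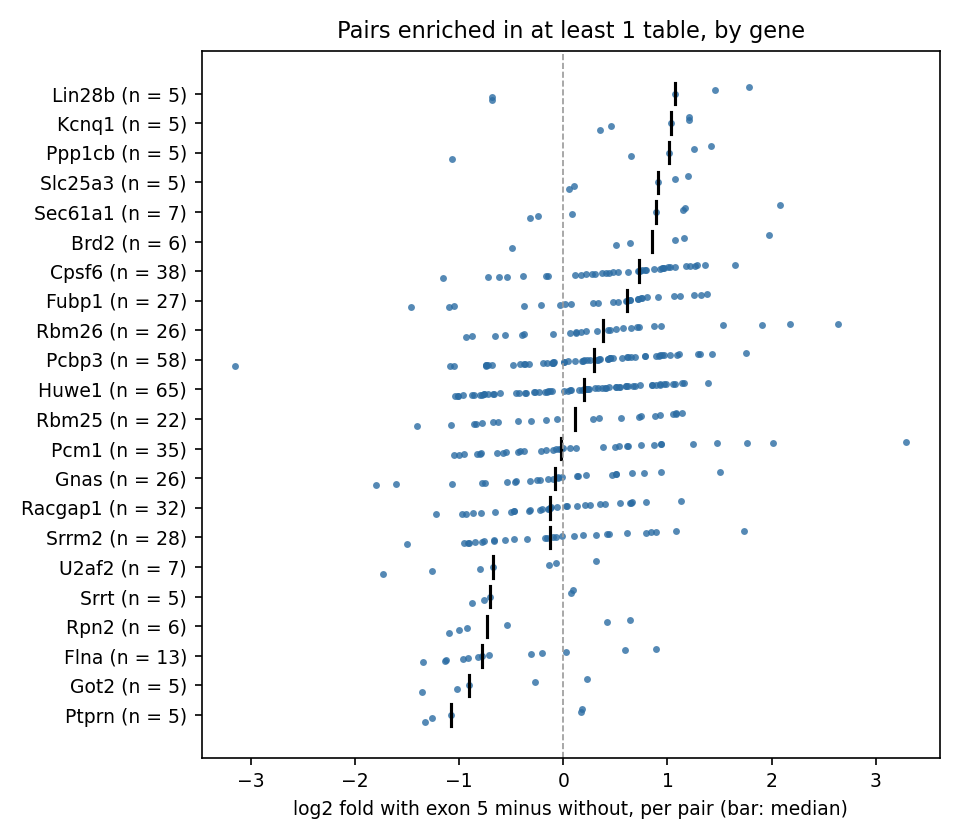
Difference of log2 fold, with exon 5 minus without, at each pair enriched in at least 1 table (points) in the 22 named genes, with the gene's median as a bar. The medians run from -1.08 in Ptprn to 1.07 in Lin28b, and within most genes the points lie on both sides of 0.

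The genes with the highest medians were Lin28b (1.07), Kcnq1 (1.03), Ppp1cb (1.02), Slc25a3 (0.91), Sec61a1 (0.89) and Brd2 (0.85). Lin28b (gene 380669), on chr10:45376617-45486314, encodes an RNA-binding protein that blocks let-7 maturation. With exon 5 its 5 enriched pairs had 1.16, 2.31, 4.96, 3.02 and 0.82 as log2 folds in the authors' deposited tables, in order along the chromosome. Without exon 5 they had -0.30, 2.997, 3.17, 3.71 and -0.25 in the authors' deposited table, so 3 were higher and 2 lower. Slc25a3, which encodes the mitochondrial phosphate carrier, was higher at all 5 pairs, by 0.06 to 1.20. In Ppp1cb, a protein phosphatase 1 catalytic subunit gene, 4 of 5 pairs were higher, and all 5 lay within 1038 to 2238 nt of the 3′ end. The 5 enriched pairs of Kcnq1, a potassium channel gene, lay on the plus strand at chr7:143219051-143227000, inside the extent of Kcnq1ot1, a long noncoding RNA gene that RefSeq places on the minus strand. No strand was available for Kcnq1, so whether these pairs are sense to it is unknown. Of the 5, 4 were enriched with exon 5 alone, a call that helps to set the sign.

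The genes with the lowest medians were Ptprn (-1.08), Got2 (-0.91), Flna (-0.78), Rpn2 (-0.73), Srrt (-0.70) and U2af2 (-0.67). Ptprn, which encodes a protein of neuroendocrine secretory granules, had 5 enriched pairs, with log2 folds of 3.70, 2.91, 0.54, 1.44 and 4.14 with exon 5 in the authors' deposited table. The same pairs had 3.52, 2.74, 1.62, 2.77 and 5.40 without exon 5 in the authors' deposited table. Its 3 lower pairs were the 3 of these nearest to the 5′ end, and the other 2 differed by 0.17 and 0.18. Flna, the filamin A gene, had 10 of 13 pairs below 0. Got2, a mitochondrial aminotransferase gene, had 4 of 5 below 0, all of them enriched without exon 5 alone. Such calls help to set the sign. Srrt encodes a partner of the nuclear cap-binding complex and had 3 of 5 below 0, and Rpn2, an oligosaccharyltransferase subunit gene, had 4 of 6.

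U2af2 (gene 22185), on chr7:5060885-5079945, encodes the factor that recognises the same pyrimidine tracts as Puf60. Its 7 pairs were enriched in both tables. With exon 5 they had 2.88, 2.86, 1.80, 3.30, 3.85, 6.01 and 1.60 as log2 folds in the authors' deposited tables. Without exon 5 they had 3.55, 3.004, 3.07, 5.03, 4.64, 6.08 and 1.29 in the authors' deposited table. The 6 pairs between 5490 and 8465 nt from the gene's 5′ end were lower with exon 5, by up to 1.73, and the 1 pair at 145 nt from its 3′ end was higher by 0.31. The strongest pair, at 6.01 and 6.08, differed by 0.07.

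Puf60's own transcript (gene 67959, chr15:76070182-76082537) held 11 pairs, 10 of them enriched in at least 1 table. Of these 10, 8 were higher with exon 5, and the median difference was 0.60. Both tables called 5 of the 10, while 4 were enriched with exon 5 alone and 1 without it alone. Calls in 1 table alone help to set the sign, and with it this count and median. The strongest, at chr15:76079536-76079585, had nearly the same log2 fold with both isoforms, with a difference of 0.09. The 4 enriched with exon 5 alone had 1.44, 1.68, 2.38 and 1.27 with it and 0.25, 0.99, 0.60 and -0.22 without it in the authors' deposited tables. The 2 pairs that were lower with exon 5 had 1.56 against 2.83 and 0.35 against 1.57 in the authors' deposited tables. Each line expresses 1 Puf60 transgene, at levels not measured here, and clusters in its exons cannot be assigned to the transgene or the cells' own gene. Rbm38 held no cluster in either Puf60 table.

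**Figure D5:**
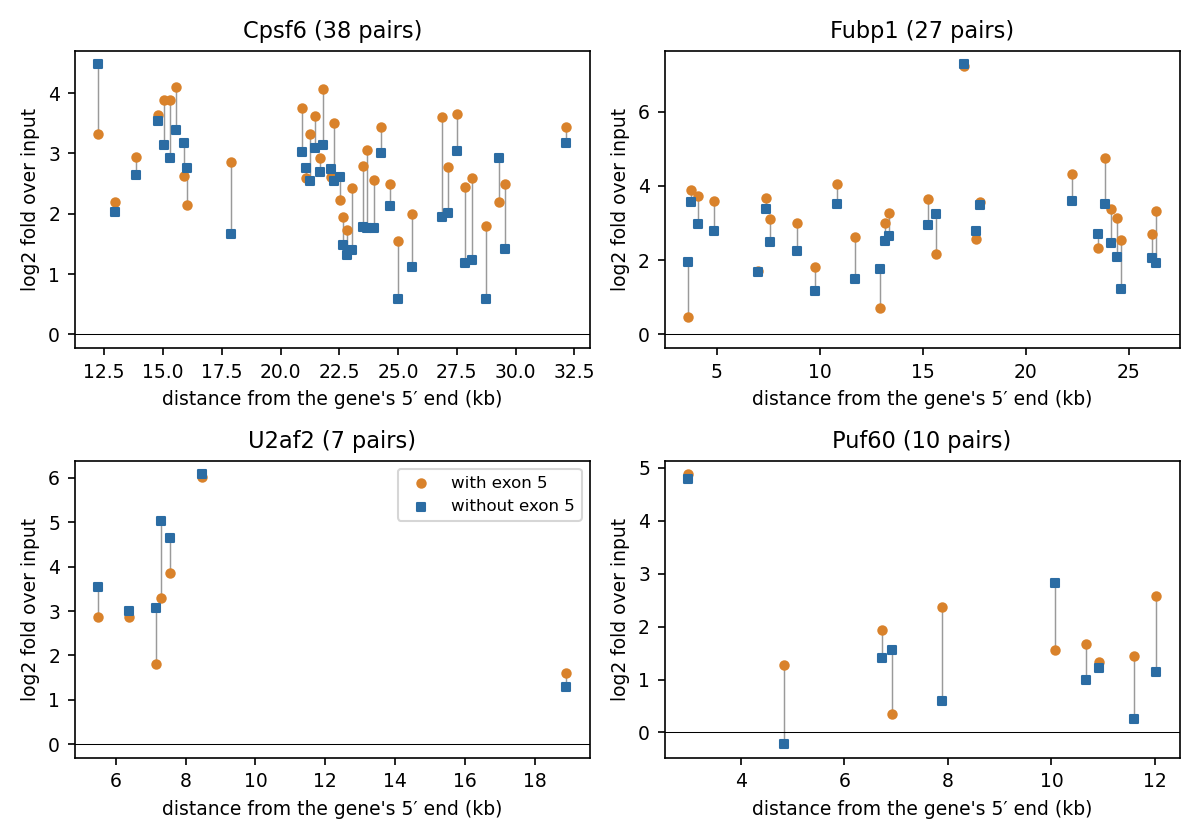
Log2 fold over input with exon 5 (circles) and without exon 5 (squares) at the pairs enriched in at least 1 table, by distance from the annotated 5′ end of Cpsf6, Fubp1, U2af2 and Puf60; grey lines join a pair. Circles lie above squares at 31 of 38 pairs in Cpsf6, 21 of 27 in Fubp1, 1 of 7 in U2af2 and 8 of 10 in Puf60.

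Genes were also ranked by their number of pairs enriched in both tables, so enrichment with both isoforms was a condition of their choice. Huwe1, a ubiquitin ligase gene, had 50 such pairs, and a median difference of 0.20 over the 65 enriched in at least 1 table. Pcbp3, a poly(C)-binding protein gene, had 42 and a median of 0.29 over 58. Cpsf6, which encodes a subunit of the cleavage factor that sets polyadenylation sites, had 36, and 31 of its 38 enriched pairs were higher with exon 5 (median 0.72, range -1.16 to 1.65). Fubp1 had 26, and 21 of 27 were higher (median 0.61, range -1.46 to 1.38). Rbm26, whose product works in nuclear RNA decay, had 25, and 19 of 26 were higher (median 0.38). Pcm1 (-0.03 over 35), a centriolar satellite gene, Racgap1 (-0.13 over 32), a cytokinesis gene, Gnas (-0.08 over 26), Srrm2 (-0.13 over 28) and Rbm25 (0.11 over 22) lay near 0. Over pairs of identical extent, however, the median of Rbm25 was 0.45 and that of Pcm1 0.25. The median of Rbm25 became -0.023 when differences were centred on pairs enriched in neither table.

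Lists of genes with known roles were then read against the 10778 pairs enriched in at least 1 table, whose median difference was 0.07 with 54.2% above 0. Starting with the machinery Puf60 works in, factors of 3′ splice site recognition had 78 such pairs in 9 of 24 members, 46 of them higher with exon 5, with a median of 0.08. Beside U2af2 and Puf60, Rbm39 had a median of 0.04 over 19 pairs, Sf1, the branch point binding protein, 0.19 over 16, and Sf3b3, a U2 snRNP subunit, -0.05 over 10. The list's median became -0.05 when centred on pairs enriched in neither table.

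The Fubp family and Myc genes had 38 pairs, 27 higher, with a median of 0.52, and 27 of the 38 pairs were those of Fubp1. Khsrp, another member of the family, had 4 of 7 higher and a median of 0.08. Fubp3 had the 1 pair shown among the sequences. Myc had 3 enriched pairs, all of them enriched in both tables, with log2 folds of 1.60, 3.01 and 2.98 with exon 5 and 2.40, 1.52 and 4.23 without in the authors' deposited tables, so that 1 was higher and 2 lower.

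Cleavage and polyadenylation factors had 62 pairs in 10 of 20 members, 46 of them higher, with a median of 0.46 (11 above 1 and 4 below -1). Cpsf6 gave 38 of the 62. Pabpn1, the nuclear poly(A)-binding protein, had 6 of 8 higher with a median of 0.50, Papola 5 of 5, and Cstf2 1 of 3 with a median of -0.04. Genes of nuclear RNA surveillance, the exosome and its adaptors, had 47 pairs, 32 higher (median 0.22), and of all their 49 pairs 91.8% were enriched in both tables, against 43.7% of all pairs. Zfc3h1, part of the adaptor that hands poly(A) RNA to the exosome, was higher at 9 of 10 (median 0.42). In the CCR4-NOT deadenylase list the median was 0.04 over 37 pairs, and members went both ways, with Cnot6 higher at 7 of 7 and Cnot1 (3 of 10) and Cnot6l (1 of 6) mostly lower.

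Among splicing regulators, SR protein genes had 79 of 130 pairs higher (median 0.16) and hnRNP genes 170 of 275 (median 0.22). Srrm1 (0.43 over 21) and Srsf11 (0.29 over 14) lay above 0, and Srrm2 below it at -0.13. Of the hnRNP genes, Ptbp2, the neuronal form of the polypyrimidine tract binding protein, had 0.23 over 23, Hnrnpk 0.16 over 21 and Hnrnpu 0.13 over 29. Neuronal and muscle splicing regulators had a median of -0.18 over enriched pairs, with 22 of 59 higher (37.3%, against 54.2% of all). Over all 109 pairs of this list, those enriched in neither table included, the median was 0.065, so its sign turned with the choice of pairs. Mbnl1 had 2 of 9 higher and a median of -0.40, Celf3 1 of 7 and -0.47, Elavl4 4 of 9 and -0.11, and Elavl2 2 of 4 and 0.13.

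Ribosomal protein genes, where 26.4% of 436 pairs were enriched in both tables, had a median of 0.06 over 181, and translation factor genes had 0.01 over 165. Within the latter Eif4g1 was lower at 16 of 21 pairs (median -0.42) and Eif4g2 had a median of 0.28 over 18. Oxidative phosphorylation genes had 0.40 over 42 enriched pairs, but 0.039 over all 157 of their pairs and -0.20 over enriched pairs of identical extent. Genes of HECT ubiquitin ligases (0.15 over 113), centrosome proteins (0.12 over 57), microtubule-associated proteins (-0.03 over 38) and snoRNA hosts or nuclear long noncoding RNAs (0.00 over 27) lay within 0.1 of the value for all enriched pairs, 0.07. Over pairs of identical extent the medians were 0.38 for centrosome genes, 0.15 for microtubule-associated protein genes and -0.085 for HECT genes. The centrosome median became -0.015 when centred on pairs enriched in neither table.

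Markers of the cells were read in the same way. Of 12 sympathetic neuroblast markers, 4 held pairs (Hand2, Insm1, Phox2a and Ret), with 14 enriched pairs and a median difference of 0.23 (0.07 over all 20 pairs). Of 18 markers of other cell types, 2 held pairs, among them Pecam1 with 2, for which no strand was available. Defining markers such as Th and Dbh had no pair. A gene without a pair may be unexpressed or unbound, or may hold clusters of either isoform that overlap none of the other. Such clusters numbered 15169 with exon 5 and 18828 without it over all genes and the stretches between them. Pairs on the opposite strand or in several genes were also not counted for a gene.

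At identical extents, the widest pairs higher with exon 5 outside tRNA genes included those at Eif3c, Coa4, Armh3 and Stx16. Coa4, a cytochrome oxidase assembly gene, had 1.75 with exon 5 and -0.78 without, Armh3 1.46 and -1.04, and Stx16, a syntaxin gene, 3.32 and 0.87, in the authors' deposited tables. Eif3c, an initiation factor gene, had a difference of 2.76, with 4 of its other enriched pairs above 0 and 6 below. Of these 4, Stx16 alone was enriched in both tables.

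The widest pairs lower with exon 5 at identical extents included those at Zc3h14 (-3.19), Pcbp3 (-3.15), Ywhae (-2.55), Fasn (-2.33), Pnisr (-2.24), Ndufc1 (-2.21), Eif3a (-2.15), Thrap3 (-2.11) and Afdn (-2.09). Of these 9, 5 were enriched in both tables. In the authors' deposited tables, Thrap3, a splicing and transcription cofactor gene, had 2.58 with exon 5 and 4.69 without, Afdn, a cell junction gene, 1.34 and 3.43, and Fasn, the fatty acid synthase gene, 1.02 and 3.35. The Ywhae pair lay 188 nt from the 5′ end of its gene. The pair of Pcbp3 was the lowest of its 58 enriched pairs, 38 of which were higher with exon 5.

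The strongest pairs were taken from those enriched in both tables, so enrichment with both isoforms was a condition of their choice. At Fubp1, Mast2, Taok3, Ppp1r12a and Six2, which had the highest mean log2 folds among named genes, the differences were -0.04, -0.32, 0.26, 0.99 and 0.21. The Ppp1r12a pair, in a myosin phosphatase subunit gene, had 7.47 with exon 5 and 6.48 without in the authors' deposited tables and lay 158 nt from the gene's 5′ end. Mast2 and Taok3 encode kinases, and Six2 a homeobox transcription factor.

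Rbm38, the third protein, shows how far a pair's class went with reads of another protein at the same place. Its table listed a cluster at 58.6% of all pairs, at 44.2% of those enriched in both Puf60 tables, and at 72.3% and 68.2% of those enriched with or without exon 5 alone. Pairs enriched in neither had one at 69.7%. Among enriched pairs more than 1 higher with exon 5, 56.9% had an Rbm38 cluster, with a median of 1.33 for Rbm38's own log2 fold in the authors' deposited table. Among those more than 1 lower the share was 42.5% and the median 0.45, and between these limits 48.6% and 0.91. The Rbm38 values come from separate libraries and a separate input, and their part in the differences was not tested.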

How the data were processed

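Each protein had 3 iCLIP libraries and 1 input of matched size from N2A cells, per the labels. The submitters' processing notes name TopHat, edgeR, NCBIM37 and mm10, without roles or versions. How clusters were called is not stated there. For each cluster the deposited tables, 1 for each protein, list a log2 fold change, a p-value and its adjusted form, per the file headers. The direction of the deposited log2 value, CLIP over input, was assumed. The tables hold no counts per library, so depth is unknown and no interval can be given. They hold 0 further columns of values.

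Clusters were paired, and differences taken, with Python 3.11.15, pandas 2.3.3 and numpy 2.4.6, and figures were drawn with matplotlib 3.10.9. The pairing was tested on simulated data. Of the pairs, 112 lacked a deposited p-value in at least 1 table and count as not enriched there. In 5567 pairs a cluster's log2 fold and p-value recur at 10 or more clusters of its table.

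A pair was given to the RefSeq gene (GRCm38.p6, gene bodies without exons) that holds its centre, among 49997 genes. Where RefSeq gave no strand, the strand of at least 80% of 3 or more clusters in the gene was taken. Pairs on the opposite strand or in several genes were kept apart, and printed positions are 1-based. Exons, introns and splice sites were not analysed here.

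Genes named are the 10 widest enriched pairs each way at identical extents and the 6 highest and 6 lowest gene medians. Added to these are the 10 genes with most pairs enriched in both tables and the 5 strongest of the pairs enriched in both. Up to 4 members per list, Puf60 and Rbm38 complete them. Predicted genes, numbered genes and pseudogenes were left out, and some genes that meet the rule are not reported here. Genes with all pairs on 1 side of 0, the small RNA genes, the windows shown and the single tRNA genes beyond this rule were chosen after their values were seen. The pairs, gene lists and comparisons were chosen with earlier results of these data known.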

Additional observations from a re-analysis of the deposited data

How the results depend on the processing

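No value here has a replicate error, so a median counts as moved when it shifts by 0.1 or more and a count when it changes by over 1.5 times. Over the alternatives, 54 of 65 values of the main comparisons stayed within these limits, as did 324 of 411 for single genes, lists and pairs. Chosen after seeing the data were all alternatives for tRNA genes and, for genes and lists, identical extents, the stricter adjusted p, tied values left out, offset ignored and centring on pairs enriched in neither table. So were both centrings and the stricter adjusted p for the median of all pairs, the offset for every value but the number of pairs, and some settings for counts of pairs. With identical start and end required, fewer pairs remain. The pairs more than 1 higher numbered 522 and those more than 1 lower 428, genes with a median above 0.5 numbered 19 (50 in the report), and lists with a median above 0 numbered 9 (14 in the report). The HECT and oxidative phosphorylation lists reversed, to -0.085 and -0.20. With differences centred on pairs enriched in neither table, the median difference of all pairs became -0.032. Genes above 0.5 then numbered 22 and those below -0.5 numbered 39, against 50 and 16. There were 8 lists above 0, the tRNA median was 1.21, and the centrosome list and Rbm25 reversed, to -0.015 and -0.023. With at least 10 pairs per gene, 16 genes lay above 0.5 and 2 below -0.5. The tRNA median lay between 1.21 and 1.38 in all settings tried. A gene left with under 5 enriched pairs has no value in that setting. So it was for 11 named genes at identical extents, Lin28b, Ppp1cb, Got2 and Srrt at an overlap of 50%, Lin28b, Ppp1cb, Kcnq1 and Rpn2 without tied values, and Kcnq1 with the offset ignored or at adjusted p under 0.01. No paired analysis was possible because the deposited tables hold 1 comparison per cluster and no value per library, and for the same reason no replicate could be left out.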
